A study of Homo sapiens with 18 samples.

Results

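This comparison sets prostate cancer cells kept in enzalutamide for more than 2 months against the same cell line given the solvent DMSO. It rests on 6 of the 18 RNA sequencing libraries of the series, 3 long-term libraries and 3 DMSO libraries, and on the 16169 of 60623 genes that reached at least 1 TPM in at least 3 of the 18 libraries. The cells are of the established line 16D, a human prostate cancer that grows after castration (genotype WT in the labels), grown in RPMI with 10% FBS. Serum of this kind brings its own steroid hormones, and all groups received it. The long-term group had 10 µM enzalutamide in the medium; the other treated groups had the same dose for 24, 48, 96 or 144 h. The 144 h group, also 3 libraries, is used below to show which differences were already present after short treatment. TPM is a gene's transcript abundance per length, with an equal sum over genes in each library, so levels of different genes can be set side by side. The labels do not say whether the 3 libraries of a group were grown as separate cultures, and p-values therefore cover only the spread among these libraries, which may be technical. A single line was used, no separate DMSO culture of matching age is labelled, and the harvest time of the DMSO cells is not stated, so drug and months in culture cannot be told apart.

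Prostate luminal cells, and most cancers that arise from them, depend on androgens, steroid hormones that act on gene transcription through DNA elements built of pairs of a short motif. Androgens switch on secreted kallikrein proteases, lipid synthesis enzymes and proliferation genes, and they hold down other genes, among them the UGT2B enzymes that attach glucuronic acid to androgens so that they can be excreted. Enzalutamide is an antiandrogen, a drug that blocks the action of these hormones on transcription. Cancers that grow on under the drug may restore androgen output, use other steroid receptors or give up luminal identity for a neuroendocrine or mesenchymal state, and the genes below are ordered along those lines.

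The first principal component of all 18 libraries held 39.7% of the variance and put the 3 long-term libraries at 56.9 to 61.9 and the other 15 at -32.7 to 6.7. Between 14418 and 14819 genes reached 1 TPM in each of the 6 libraries. Read totals are not part of TPM, so sequencing depth is unknown here and no counting error is given. Mitochondrially encoded transcripts took 17.7 to 20.6% of the TPM of DMSO libraries, 18.3 to 22.5% at 144 h, and 26.4% ± 3.92 (mean ± SD, n = 3) in long-term libraries. The median log2 fold change of all tested genes was -0.124 against DMSO and -0.192 against 144 h, and the values below are best read relative to these medians. Luminal keratins marked the cells in both groups, with KRT8 at 143 ± 2.97 TPM in DMSO and 153 ± 5.78 TPM long-term (mean ± SD, n = 3 libraries), and no leukocyte marker of 16 exceeded 0.83 TPM.

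In all, 8413 of 16169 genes (52.0%) differed between long-term and DMSO libraries at an adjusted p under 0.05, 2931 (18.1%) higher and 5482 (33.9%) lower. Fold changes here and below are on the scale of log2(TPM + 1), which understates the change of low genes, with ± standard error, and each adjusted p comes from limma's moderated test, with the Benjamini-Hochberg adjustment made over all genes tested. By at least 1 on that scale, 714 genes (4.42%) were higher and 832 (5.15%) lower. The higher share of the calls, 34.8%, depends on the scaling: it was 50.1% after median-of-ratios scaling (4310 higher, 4296 lower), 48.7% after quantile normalization and 48.1% after rescaling without the mitochondrially encoded genes (4088 higher, 4411 lower). With the mitochondrial share as a covariate there were 6851 calls, 49.9% of them higher; whether that share had a part in single results was not tested beyond these alternatives. With 52.0% of all genes called, a call in itself says little, and the sizes matter more. Of the 8413 calls, 6427 held without each of the 6 libraries in turn and 5500 under all 4 other scalings. Against 144 h, 7450 genes (46.1%) differed in the long-term libraries, 1493 (9.23%) higher and 5957 (36.8%) lower. That split turned to 3663 higher and 3370 lower after median-of-ratios scaling and was 3308 and 3496 after quantile normalization. At 144 h against the same DMSO libraries, 6941 genes (42.9%) differed, 4294 (26.6%) higher and 2647 (16.4%) lower, or 3810 and 3888 after median-of-ratios scaling and 3675 and 3724 after quantile normalization. The long-term libraries lay wholly above or below those in DMSO for 9286 genes (57.4%) and those at 144 h for 7722 (47.8%), the background for each statement below that groups do not overlap.

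**Figure D1:**
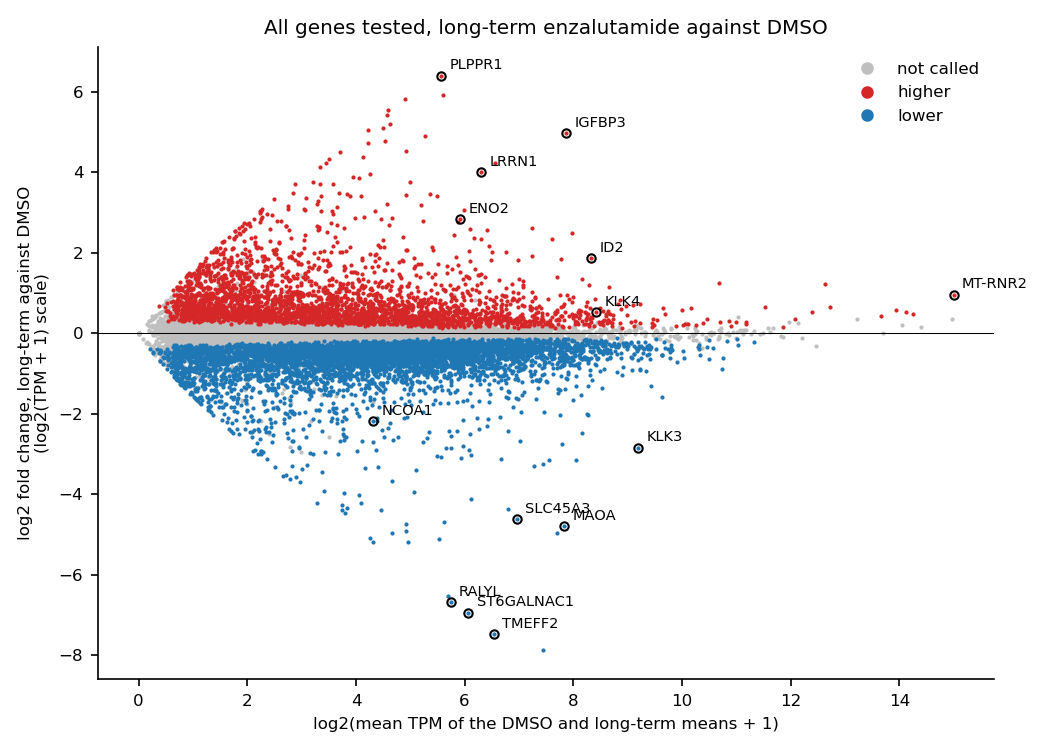
Each point is 1 of the 16169 tested genes, placed by the mean of its DMSO and long-term levels (x, log2 of TPM + 1) and by its log2 fold change of long-term against DMSO (y); red and blue points were called higher and lower, and open circles mark named genes. The changes run from losses such as TMEFF2 (-7.47) to gains such as PLPPR1 (6.40), while the most abundant named gene, MT-RNR2, lies at 0.96.

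The sequences just before the transcription starts of a kallikrein pair and a UGT2B pair are shown. These 4 androgen-regulated genes are similar within each pair, and the 2 pairs stood at very different levels in the long-term cells. KLK3 and KLK2 had means of 142 and 63.7 TPM, while UGT2B15 and UGT2B11 were both below 1 TPM. The sequences were not tested as a cause. The stretches shown are the 250 bases before the start in RefSeq (GRCh38.p14), 5′ to 3′ on the gene's own strand, in lower case with the androgen element motif AGAACA or its variant GGAACA, on either strand, in capitals. KLK3 and UGT2B15 hold AGAACA with its first base at -170 and -172 from the start, KLK2 holds GGAACA at -176, and UGT2B11 holds neither. The windows are chr19:50854665-50854914 (plus strand) for KLK3, chr19:50873189-50873438 (plus strand) for KLK2, chr4:68670653-68670902 (minus strand) for UGT2B15 and chr4:69214749-69214998 (minus strand) for UGT2B11. The KLK2 window lies inside the gene bounds given below, which are from GENCODE and begin at 50861568, upstream of the RefSeq start used here.
KLK3: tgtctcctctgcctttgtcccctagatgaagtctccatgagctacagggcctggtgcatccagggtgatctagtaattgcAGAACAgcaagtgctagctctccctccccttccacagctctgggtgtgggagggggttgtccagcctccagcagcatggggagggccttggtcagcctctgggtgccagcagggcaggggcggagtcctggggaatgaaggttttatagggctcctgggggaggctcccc
KLK2: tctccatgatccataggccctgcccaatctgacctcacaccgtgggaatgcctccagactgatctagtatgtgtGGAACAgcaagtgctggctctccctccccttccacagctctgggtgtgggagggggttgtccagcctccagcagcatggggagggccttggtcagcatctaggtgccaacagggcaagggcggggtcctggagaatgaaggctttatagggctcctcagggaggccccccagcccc
UGT2B15: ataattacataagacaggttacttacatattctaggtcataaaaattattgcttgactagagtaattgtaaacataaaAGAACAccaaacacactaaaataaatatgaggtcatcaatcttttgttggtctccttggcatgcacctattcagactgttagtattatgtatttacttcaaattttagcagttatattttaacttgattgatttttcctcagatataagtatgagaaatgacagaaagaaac
UGT2B11: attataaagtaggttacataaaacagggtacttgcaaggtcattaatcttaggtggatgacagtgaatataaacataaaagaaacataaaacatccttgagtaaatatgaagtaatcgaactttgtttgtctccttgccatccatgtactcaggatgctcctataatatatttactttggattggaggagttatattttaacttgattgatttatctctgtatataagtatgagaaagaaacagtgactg
Aligned, the KLK3 and KLK2 windows are identical at 211 of 237 bases (89.0%), and those of UGT2B15 and UGT2B11 at 187 of 238 (78.6%). Such 6-base motifs are common: of 15038 windows of this length from 10321 tested genes, 7.97% hold AGAACA and 9.57% hold GGAACA on either strand, against 3 and 5 of the 48 windows found for 28 of the 45 androgen-induced genes. A match is a description of the letters, not evidence of binding. Because the genes of each pair, and UGT2B17, are alike, reads of 50 bases may have been split between them, and their separate values are uncertain to that degree.

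The kallikreins KLK3 and KLK2 were lower than in DMSO and KLK4 was higher, but each stood above its level at 144 h. KLK3 (ENSG00000142515, chromosome 19, 50854915 to 50860764, GRCh38), the gene of prostate-specific antigen, was at 1038, 1037 and 989 TPM in the 3 DMSO libraries, 34.3, 36.1 and 32.2 TPM at 144 h and 131, 156 and 140 TPM long-term. The 3 groups did not overlap, and the long-term level was 13.9% of that in DMSO (-2.84 ± 0.06, adjusted p = 1.49e-15) but higher than at 144 h (2.02 ± 0.06, adjusted p = 2.66e-13). KLK2, a neighbouring kallikrein gene (ENSG00000167751, chromosome 19, 50861568 to 50880567) whose product can activate prostate-specific antigen, was at 158, 149 and 147 TPM in DMSO, 6.07, 4.08 and 4.81 TPM at 144 h and 62.4, 66.9 and 61.9 TPM long-term. It thus stood at 42.1% of DMSO (-1.23 ± 0.09, adjusted p = 1.17e-08), and 3.45 ± 0.09 above 144 h. KLK4, the third prostate kallikrein (ENSG00000167749, chromosome 19, 50906352 to 50910738), was at 285, 268 and 285 TPM in DMSO, 72.2, 72.1 and 70.9 TPM at 144 h and 398, 399 and 405 TPM long-term. All 3 long-term values lay above all DMSO values, a rise of 0.52 ± 0.05 (adjusted p = 1.39e-07). Members at lower levels went the same way between 144 h and long-term: KLK15 went from 0.997 to 1.77 TPM, AZGP1, a secreted zinc-binding glycoprotein gene, from 10.5 to 14.5 TPM, and NDRG1, a stress-responsive gene, from 13.2 to 28.5 TPM, the last above its DMSO mean of 17 TPM (adjusted p = 0.000529).

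Another set of androgen-induced genes was lower long-term than at 144 h. TMPRSS2 (ENSG00000184012, chromosome 21, 41464551 to 41531116), a serine protease whose gene often drives oncogenic gene fusions in prostate cancer, was at 104, 123 and 99 TPM in DMSO, 42.5, 32.2 and 40.3 TPM at 144 h and 10.4, 14.1 and 11.2 TPM long-term. The 3 groups did not overlap, with -3.09 ± 0.12 against DMSO (adjusted p = 2.77e-12) and -1.61 ± 0.12 against 144 h. SLC45A3, a prostate solute carrier gene (ENSG00000158715, chromosome 1, 205657851 to 205680459), fell from 239, 239 and 237 TPM in DMSO to 19.7, 18 and 19.9 TPM at 144 h and 8.51, 9.77 and 8.02 TPM long-term (-4.62 ± 0.07, adjusted p = 4.45e-17). FKBP5 (ENSG00000096060, chromosome 6, 35573585 to 35728583), whose product helps fold steroid receptors, was at 85.7, 95.9 and 79.5 TPM in DMSO and 13.8, 17.4 and 14.8 TPM long-term (-2.43 ± 0.10, adjusted p = 8.16e-12). Its 144 h libraries, at 21.1, 18.2 and 21.6 TPM, were higher than the long-term ones by test (adjusted p = 0.00593). ST6GALNAC1, a sialyltransferase gene (ENSG00000070526, chromosome 17, 76624761 to 76643838), went from 122, 158 and 117 TPM to 0.04, 0.06 and 0.12 TPM (-6.94 ± 0.15), and ACSL3, a fatty acid activating enzyme gene, from 466, 495 and 456 to 52.2, 55 and 49.4 TPM (-3.15 ± 0.06). ELL2, an elongation factor gene, was at -3.41, ALDH1A3, a retinaldehyde dehydrogenase gene, at -2.59, and LRIG1, a feedback inhibitor gene of growth factor receptors, at -2.45; all 3 were also called lower than at 144 h.

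Across the androgen-induced list, 41 of 45 tested members were lower than in DMSO and 3 higher, with a median of -1.95 against -0.12 for all genes, and 40 or 41 were lower under each of the 4 other scalings. Against 144 h the same list split, with 12 members higher, 23 lower and a median of -0.39 beside -0.19 for all genes. PLPP1, a lipid phosphatase gene, had a value of -0.13 against DMSO (adjusted p = 0.125) and was 0.62 above its 144 h level. ACPP, which encodes prostatic acid phosphatase, was above DMSO by 1.10. Less of a transcript in bulk RNA can reflect fewer cells that express it or less of it per cell, and these cannot be told apart here.

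**Figure D2:**
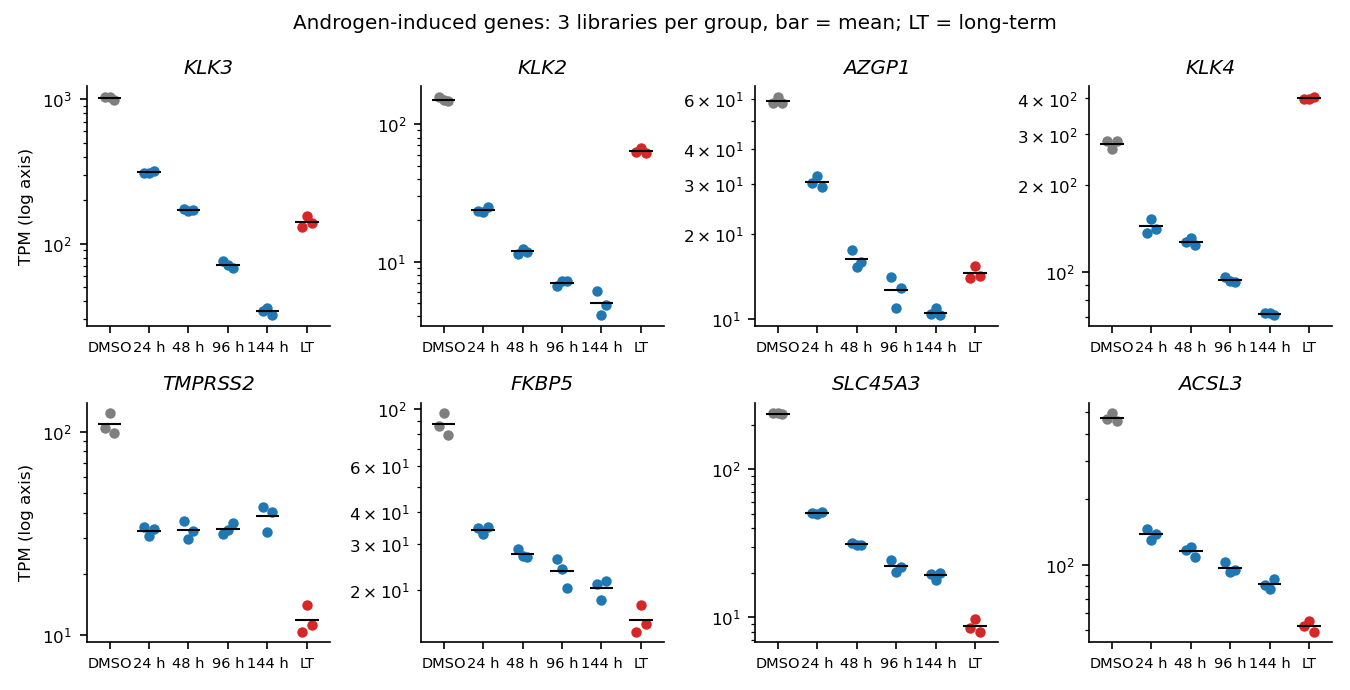
TPM of 8 androgen-regulated genes (y, log axis) in each library of the 6 groups (x; LT is long-term), with bars at the mean of 3 libraries. In the upper row the long-term libraries (red) stand above those at 144 h, in KLK4 also above DMSO (grey), while in the lower row they are the lowest of the series.

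Androgen-repressed genes parted in the long-term cells: 3 of 11 tested members were higher than in DMSO and 7 lower, with a median of -2.03, and against 144 h 2 were higher and 9 lower. UGT2B15, UGT2B17 and UGT2B11, similar genes near each other on chromosome 4, are among the 7 lower members and weigh on that median. UGT2B15 (ENSG00000196620, chromosome 4, 68646630 to 68670628), an enzyme gene of androgen glucuronidation, was at 24.6, 24.9 and 23.7 TPM in DMSO, 209, 195 and 221 TPM at 144 h and 0.23, 0.43 and 0.3 TPM long-term. The long-term values lay far below both other groups (-4.27 ± 0.09 against DMSO, adjusted p = 1.37e-15). UGT2B17 (ENSG00000197888, chromosome 4, 68537184 to 68568527), its near relative, was at 24.6, 24.1 and 24.9, 111, 107 and 123 and 0.3, 0.2 and 0.18 TPM in those 3 groups. UGT2B11 (ENSG00000213759, chromosome 4, 69199951 to 69214731) was at 99.4, 109 and 98 TPM in DMSO, already lower at 144 h (51.3, 45.5 and 49 TPM), and at 0.05, 0.26 and 0.04 TPM long-term (-6.53 ± 0.10). UGT2B28 was listed at 0 in all 3 long-term libraries, from a DMSO mean of 17.5 TPM, and UGT2B10 went from 3.15 to 0.0167 TPM. BCHE, butyrylcholinesterase (ENSG00000114200, chromosome 3, 165772904 to 165837472), was at 86.1, 92.5 and 86 TPM in DMSO, 225, 212 and 229 TPM at 144 h and 1.37, 1.86 and 1.5 TPM long-term (-5.12 ± 0.10, adjusted p = 3.71e-16). ACKR3, an atypical chemokine receptor gene, followed the same order with means of 44.9, 186 and 18.3 TPM. Members higher than in DMSO, at 144 h too, were CAMK2N1, the gene of a CaM kinase inhibitor, at 1.31 TPM in DMSO and 35 TPM long-term (3.96 ± 0.10), and OPRK1, an opioid receptor gene, at 0.92 and 5.24 TPM (1.69 ± 0.10).

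Of 37 tested nuclear receptor and partner genes, 14 were higher and 12 lower (37.8 and 32.4%, beside 18.1 and 33.9% of all genes). GATA2, a transcription factor gene that helps open androgen-regulated sites, rose from 154, 169 and 157 to 375, 450 and 395 TPM (1.34 ± 0.08). ESR1, the estrogen receptor gene, was listed at 0 in every DMSO library and at 3.49, 4.58 and 3.4 TPM long-term. NCOA1, a receptor coactivator gene on arm 2p, where most tested genes fell (described below), went from 31.6, 35.8 and 27.6 to 5.44, 7.64 and 5.6 TPM (-2.18 ± 0.12). NR2F1, an orphan receptor gene, went from 5.45, 5.47 and 7.22 to 0.32, 0.27 and 0.25 TPM (-2.45 ± 0.12). NR3C1, the glucocorticoid receptor gene, did not pass the expression filter, at 0.01, 0.09 and 0.01 TPM in DMSO and 0.49, 0.54 and 0.48 TPM long-term; its levels are given without a test. In the glucocorticoid-response list, some of whose genes respond to androgens too, 11 of 13 tested members were lower and 1 higher (median -1.14). ZBTB16 fell by 2.99 on the log2 scale and the metallothionein gene MT2A from 492, 462 and 510 to 129, 111 and 121 TPM (-2.01 ± 0.06). The exception was SGK1, a kinase gene, at 2.77 ± 0.677 TPM in DMSO and 14 ± 1.02 TPM long-term (2.00 ± 0.14, adjusted p = 6.44e-09). In steroid synthesis and breakdown, 7 of 22 members were higher and 10 lower, a split that was 7 to 7 after median-of-ratios scaling and 7 to 5 with the covariate. AKR1C3, which reduces weak androgens to testosterone, rose from 0.15, 0.05 and 0.1 to 4.08, 5.44 and 5.05 TPM (2.41 ± 0.12), and STARD4, a cholesterol carrier gene, fell from 8.08 to 0.807 TPM (-2.33 ± 0.17).

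Some genes were near 0 or low in DMSO and at 144 h and well expressed long-term. PLPPR1, which encodes a membrane protein of neurite growth (ENSG00000148123, chromosome 9, 101028709 to 101325135), was at 0.21, 0.07 and 0.02 TPM in DMSO, 0.33, 0.2 and 0.25 TPM at 144 h and 80.4, 106 and 91.1 TPM long-term. No other called gene that the naming rule allows rose more (6.40 ± 0.12, adjusted p = 3.71e-16). ADCYAP1, which encodes the neuropeptide PACAP (ENSG00000141433, chromosome 18, 904943 to 912172), was at 0.03, 0 and 0.05 TPM in DMSO and 49.3, 68 and 56 TPM long-term (5.83 ± 0.11). ROBO2, an axon guidance receptor gene (ENSG00000185008, chromosome 3, 75906695 to 77649964), was at 0.01, 0 and 0 and 40.7, 51.9 and 46.1 TPM (5.55 ± 0.11). ADGRL3, a latrophilin adhesion receptor gene (ENSG00000150471, chromosome 4, 61201258 to 62078335), was at 0.01, 0.15 and 0.08 and 37.3, 55.8 and 44 TPM (5.42 ± 0.14), and LRRTM4, a synaptic adhesion gene (ENSG00000176204, chromosome 2, 76747719 to 77593319), at 0.22, 0.37 and 0.32 and 43.3, 51.2 and 46.1 TPM (5.20 ± 0.12). HTR7, a serotonin receptor gene (ENSG00000148680, chromosome 10, 90740823 to 90857698), was at 0.09, 0.11 and 0.05 and 30.6, 39.5 and 34.8 TPM (5.05 ± 0.11). VSTM2A was at 5.09, FAM135B at 4.34, IGFBP5, whose product binds insulin-like growth factors, at 4.77, and TRIB2, a pseudokinase gene, at 4.89, from 1.53 to 74 TPM. In all of these 10 genes the long-term libraries lay above every DMSO and every 144 h library. They were chosen by that pattern, which is therefore a description.

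In other genes with large gains, the 144 h libraries were above DMSO too. IGFBP3 (ENSG00000146674, chromosome 7, 45912245 to 45921874), whose product likewise binds these growth factors, was at 12.6, 15.1 and 12.6 TPM in DMSO, 189, 176 and 203 TPM at 144 h and 439, 461 and 452 TPM long-term (4.97 ± 0.07, adjusted p = 4.9e-18), an order without overlap. LRATD1 (ENSG00000162981, chromosome 2, 14632686 to 14650814) was at 0.58, 0.45 and 0.69, 13.2, 12.3 and 10.9 and 84.9, 112 and 88.6 TPM (5.92 ± 0.14). SYTL2, a vesicle transport gene, rose by 4.52 ± 0.12, GALNT17, a glycosyltransferase gene, by 4.74 ± 0.17, STAC by 4.39 ± 0.15, and TNC, the matrix protein tenascin C, by 4.51 ± 0.26 to 17.3, 25.4 and 28.9 TPM.

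On the other side stood genes that DMSO cells expressed well and long-term cells barely. TMEFF2, a prostate surface protein gene (ENSG00000144339, chromosome 2, 191949043 to 192195709), was at 179, 188 and 182 TPM in DMSO, 4.25, 5.11 and 5.37 TPM at 144 h and 0.05, 0 and 0.05 TPM long-term (-7.47 ± 0.09, adjusted p = 1.68e-18). RALYL, an RNA-binding protein gene (ENSG00000184672, chromosome 8, 84182787 to 84921844), was at 103, 112 and 99.5 TPM in DMSO, 117, 113 and 123 TPM at 144 h and 0.05, 0.02 and 0.03 TPM long-term (-6.68 ± 0.09). Its 144 h values all lay above those in DMSO. PTGFR, a prostaglandin receptor gene (ENSG00000122420, chromosome 1, 78303884 to 78539749), went from 39, 39.1 and 34.5 to 0.11, 0.04 and 0.04 TPM (-5.18 ± 0.16), and SLC44A4, a choline transporter-like gene (ENSG00000204385, chromosome 6, 31863192 to 31879046), from 50.3, 49.3 and 45.1 to 0.56, 0.53 and 0.66 TPM (-4.96 ± 0.06), with 75, 75.3 and 76.4 TPM at 144 h. ADAMTS1, a secreted protease gene, was at -4.47 and PRUNE2 at -4.68. EHF, an epithelial transcription factor gene (ENSG00000135373, chromosome 11, 34621093 to 34661057), fell from 199, 249 and 183 to 7.87, 10 and 9.68 TPM (-4.37 ± 0.13). MAOA, monoamine oxidase A (ENSG00000189221, chromosome X, 43654907 to 43746824), fell from 433, 474 and 405 to 12.7, 18 and 14.1 TPM (-4.79 ± 0.10), and S100P, a calcium-binding protein gene (ENSG00000163993, chromosome 4, 6693069 to 6697170), from 407, 411 and 384 to 10.7, 11.6 and 13.4 TPM (-4.97 ± 0.09). KCNMA1, a potassium channel gene, was at -4.75 and IQGAP2, a scaffold gene, at -4.91.

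**Figure D3:**
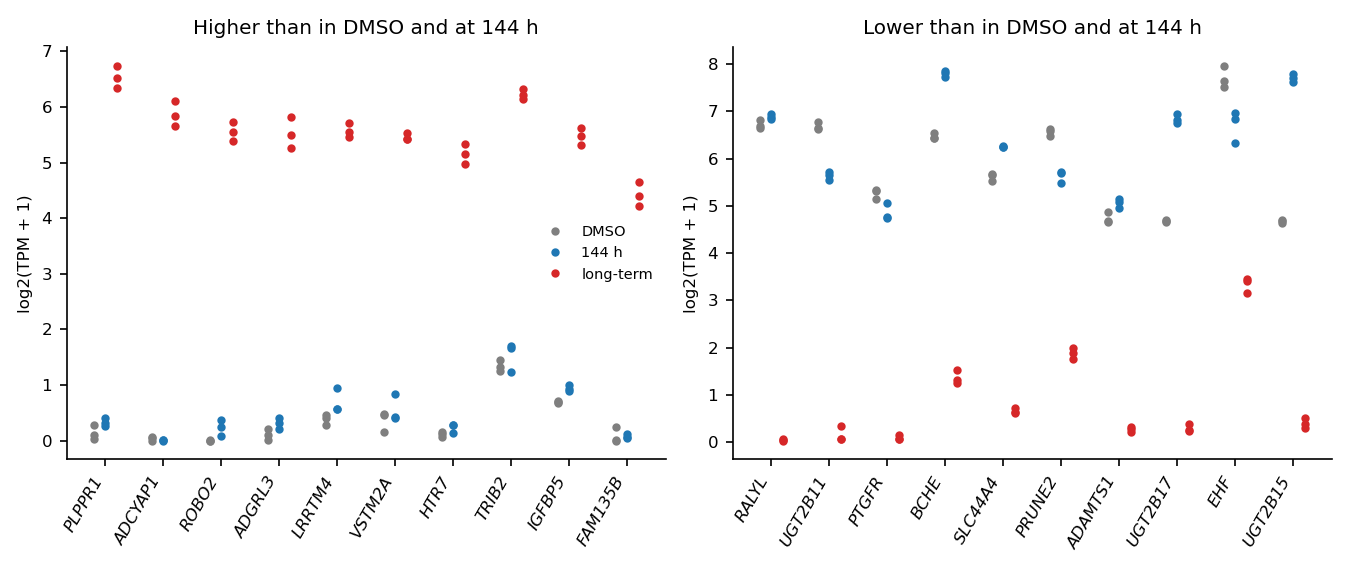
Levels (y, log2 of TPM + 1) of the 10 genes in each direction that were called against both DMSO and 144 h by the largest margin, with 3 libraries per group: DMSO grey, 144 h blue, long-term red. Every red point lies apart from the grey and blue points of its gene, by the way the genes were chosen. Among the genes lower long-term, UGT2B15, UGT2B17, BCHE, SLC44A4 and ADAMTS1 were called higher at 144 h than in DMSO.

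Identity genes moved in several directions at once. In the luminal epithelial list 13 of 24 tested members were lower and 7 higher (median -0.32). These are 54.2 and 29.2%, beside 33.9% lower and 18.1% higher of all genes. EPCAM, an epithelial adhesion gene on arm 2p, fell from 178, 169 and 176 to 93.9, 97.9 and 87.1 TPM (-0.90 ± 0.07) and so did TJP1, a tight junction gene (-1.65 ± 0.11), while AMACR, a metabolic enzyme often raised in prostate cancer, rose from 24.1, 25.9 and 24.6 to 125, 142 and 125 TPM (2.34 ± 0.07) and ELF3, an epithelial factor gene, by 1.59 ± 0.08. KRT8 had a value of 0.10 (adjusted p = 0.117). Of 33 neuroendocrine markers only 9 passed the expression filter, of which 3 were higher and 2 lower. ENO2, neuronal enolase (ENSG00000111674, chromosome 12, 6913745 to 6923698), rose from 14.1, 14.3 and 13.1 to 95.2, 117 and 103 TPM (2.83 ± 0.11) and SYT4, a synaptotagmin gene, from 1.86, 3.45 and 1.87 to 20, 23.4 and 18.7 TPM (2.70 ± 0.16), while PEG10 fell (-0.92 ± 0.16). SYP, synaptophysin, was at 1.29 ± 0.161 and 1.94 ± 0.157 TPM (adjusted p = 0.0265). Defining markers stayed at or near 0 TPM: CHGA had a long-term mean of 0.0467, INSM1 of 0.00667 and SOX2 of 0.0233 TPM, none of them tested. In the mesenchymal list, 6 of 9 tested members of 20 were higher and 2 lower, and 5 higher and 2 lower with the covariate. FN1, fibronectin, rose from 45.4, 40.7 and 40.4 to 170, 181 and 166 TPM (2.01 ± 0.08), ACTA2, smooth muscle actin, from 4.64, 3.82 and 4.8 to 15.3, 16.7 and 17.8 TPM (1.70 ± 0.12), and TWIST1 by 1.27 ± 0.16, whereas SNAI2 fell (-1.95 ± 0.11). VIM, vimentin, was at 2.58 and 2.98 TPM (adjusted p = 0.433), and CDH2, N-cadherin, ZEB2 and their like were listed at 0 or near it. Fibroblast markers had 2 of 11 members tested, ACTA2 higher and COL1A1, a collagen gene, lower (-0.92 ± 0.19); their summed level was 18.2 to 20.7 TPM in DMSO and 22.6 to 27.0 TPM long-term. Endothelial markers had 2 of 9 tested and none called, and their summed level was at most 3.78 TPM in either group. Of 6 tested basal markers, 3 were higher, such as ITGB4 (1.72 ± 0.15), and 2 lower, such as EGFR (6.44 TPM in DMSO and 2.71 TPM long-term).

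Neuronal adhesion and axon guidance genes included 21 of 41 tested members higher and 9 lower, with a median of 0.54, and 25 or 26 higher under the other scalings. Beside ROBO2, LRRN1, a leucine-rich repeat gene, rose from 7.75, 9.25 and 7.75 to 132, 163 and 146 TPM (adjusted p = 1.26e-14) and EFNA3, an ephrin gene, from 20, 18.8 and 17.2 to 114, 121 and 117 TPM (2.59 ± 0.07). NRXN3, a neurexin gene, fell from 13.7, 14.3 and 12.3 to 0.09, 0.19 and 0.08 TPM (-3.69 ± 0.12). Against 144 h the list had 11 of 41 members higher and 17 lower, while 9.23% of all genes were higher and 36.8% lower. Its median against 144 h was -0.26, beside -0.19 for all genes.

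Proliferation genes were mostly lower. Of 52 S phase genes 49 fell and none rose (median -0.73), and of 42 G2 and mitosis genes 39 fell and none rose (median -0.55). With the other scalings 44 to 48 and 32 to 36 fell and at most 1 rose in each. Against 144 h, 23 of the 52 and 19 of the 42 were lower and 2 of each higher, while 36.8% of all genes were lower. Both lists had a median of -0.23 against 144 h, beside -0.19 for all genes. MCM7, a subunit of the replicative helicase, fell from 266, 273 and 246 to 121, 144 and 125 TPM (-1.01 ± 0.07), as did CDC6, a licensing factor gene (-1.28 ± 0.09), TK1, thymidine kinase (-0.86 ± 0.06), KIF20A, a mitotic kinesin gene (-0.81 ± 0.05), and HMMR, a spindle-associated gene (-1.09 ± 0.11). MKI67, which encodes the Ki-67 antigen, was at 32.5, 39.6 and 31.1 TPM in DMSO and 20.3, 22.4 and 20.4 TPM long-term (-0.68 ± 0.13, adjusted p = 0.000303). Its difference from 144 h was -0.28 ± 0.13 (adjusted p = 0.0796). CDKN2A, an inhibitor of CDK4 and CDK6, rose from 24.5, 26.3 and 29.6 to 85.2, 94.7 and 84.9 TPM (1.69 ± 0.09), in a list of CDK inhibitors and cyclins with 4 of 18 higher and 8 lower, or 7 and 7 after median-of-ratios scaling. That list's shares as deposited, 22.2% higher and 44.4% lower, stand beside 18.1 and 33.9% of all genes. CDKN1A, the p21 gene, had 0.22 ± 0.10 (adjusted p = 0.086), which became a rise of 0.35 to 0.45 with a call under each of the 4 other scalings (adjusted p = 0.000374 to 0.00252) and without long-term replicate 1.

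MYC, a growth-promoting transcription factor gene (ENSG00000136997, chromosome 8, 127735434 to 127741434), was at 265, 312 and 255 TPM in DMSO, 167, 113 and 119 TPM at 144 h and 310, 399 and 351 TPM long-term. The long-term libraries were all above those at 144 h (1.42 ± 0.13, adjusted p = 2.25e-07) but overlapped DMSO. The difference from DMSO was 0.35 ± 0.13 (adjusted p = 0.0324), and that call ended without DMSO replicate 1 or 3 (adjusted p = 0.091 and 0.111) or long-term replicate 2 or 3 (0.136 and 0.0681). PVT1, the long noncoding RNA gene beside it, rose from 92.3, 96.1 and 108 to 216, 206 and 183 TPM (1.02 ± 0.13, adjusted p = 4.16e-06). Both genes lie on 8q, an arm with more higher calls than all genes. In their own stretch, from 120 to 130 Mb, 8 of 36 genes were higher and 5 lower, with a median of 0.03. In the MYC and MAX network 3 of 13 genes were higher and 4 lower (23.1 and 30.8%, near the 18.1 and 33.9% of all genes). Both counts were 3 under 3 of the other scalings. Nucleolar genes of ribosome biogenesis, many of them known MYC targets, had 39 of 50 members lower than in DMSO and none higher (median -0.37), or 27 to 34 lower and up to 4 higher under the other scalings. NOP56 fell from 493, 499 and 477 to 261, 277 and 257 TPM (-0.88 ± 0.06) and GNL3, nucleostemin, fell too (-0.41 ± 0.05). Against 144 h, 17 of the 50 were higher and 4 lower, LYAR among the higher ones (0.47 ± 0.06). Cytosolic ribosomal protein genes split evenly, 12 of 66 higher and 13 lower (median -0.01), but 20 and 5 after median-of-ratios scaling.

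Lipid synthesis genes were mostly lower. Of 27 cholesterol synthesis genes 22 fell and 2 rose (median -0.81), and 20 to 22 fell under the other scalings. FDFT1, squalene synthase on arm 8p, fell from 307, 326 and 296 to 98.1, 121 and 110 TPM (-1.49 ± 0.08). Of 25 fatty acid synthesis genes 17 fell and 5 rose (median -0.63). SCD, the main desaturase gene (ENSG00000099194, chromosome 10, 100347124 to 100364834), was at 306, 340 and 291 TPM in DMSO, 188, 154 and 192 TPM at 144 h and 28.9, 35 and 32.6 TPM long-term (-3.24 ± 0.10). ELOVL7 (-5.19) and ELOVL2 (-5.08), both fatty acid elongase genes, fell to 0.62, 0.8 and 0.51 and to 0.1, 0.12 and 0.08 TPM.

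Glucose and mitochondrial genes showed no common direction. The background for each list here is 18.1% higher and 33.9% lower among all genes. In glycolysis 6 of 29 members were higher and 9 lower, but 12 to 15 higher and 7 to 9 lower under the other scalings. HK2, a hexokinase gene on arm 2p that commits glucose to metabolism (ENSG00000159399, chromosome 2, 74833981 to 74893359), fell from 20, 20.4 and 17.3 to 5.57, 6.38 and 5.43 TPM (-1.57 ± 0.11, adjusted p = 8.5e-09) and LDHA, lactate dehydrogenase A, fell (-0.89 ± 0.10), while ALDOC, an aldolase gene, rose by 1.68 ± 0.06 and PFKP, a phosphofructokinase gene, by 1.20 ± 0.08. Among 23 TCA cycle genes 2 were higher and 8 lower, or 7 and 6 after median-of-ratios scaling. SUCLG1, on arm 2p, was at -0.51 and IDH3G at 0.38. Fatty acid oxidation had 7 of 23 higher and 3 lower, or 11 to 13 higher and 2 or 3 lower under the other scalings. DECR1, a dienoyl-CoA reductase gene on arm 8q, rose by 0.90 ± 0.07. Nuclear-encoded respiratory chain genes had 14 of 76 higher and 21 lower, a direction that turned to 29 and 9 after median-of-ratios scaling. NDUFB4, a complex I subunit gene, fell from 2222, 2140 and 2282 to 1183, 1194 and 1212 TPM (-0.89 ± 0.06). Mitochondrially encoded genes had 8 of 15 higher and none lower, led by the ribosomal RNA gene MT-RNR1 (1.23 ± 0.10) and MT-RNR2 (0.96 ± 0.10), against 7 and 3 after quantile normalization and 3 and 6 with their own share as a covariate. Of 19 genes of mitochondrial fission and fusion, 10 fell and 2 rose. DNM1L, the fission GTPase gene DRP1 (ENSG00000087470, chromosome 12, 32679200 to 32745650), was at 60.8, 60.3 and 53.5 TPM in DMSO and 36.3, 42.2 and 36 TPM long-term, with no overlap (-0.60 ± 0.09, adjusted p = 5.53e-05). Its fall against 144 h was -0.32 (adjusted p = 0.0117). MFN1 and MFN2, the fusion GTPase genes, fell (-0.55 ± 0.10 and -0.53 ± 0.09), and GDAP1, a gene of mitochondrial shape on 8q, rose by 1.14 ± 0.12.

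In the amino acid, protein folding and oxidative stress responses, 60.6, 66.7 and 57.9% of tested members were called lower, against 33.9% of all genes. Higher calls made up 3.03, 11.1 and 10.5%, against 18.1% of all genes. These shares depended on the scaling. Of 33 targets of ATF4, a transcription factor that responds to lack of amino acids, 20 were lower and 1 higher (median -0.44). Under the other scalings 16 to 18 were lower and 3 to 5 higher. ASNS, asparagine synthetase, fell from 332, 317 and 309 to 153, 163 and 155 TPM (-1.02 ± 0.05), SLC1A5, a glutamine transporter gene, fell (-1.63 ± 0.05), and DDIT3, the CHOP gene, rose from 20.2, 20.2 and 20 to 70.9, 69.3 and 66.7 TPM (1.73 ± 0.07). The unfolded protein response had 18 of 27 lower and 3 higher, but 11 to 13 lower and 4 to 6 higher under the other scalings, with CREB3L4 at -1.17 and PDIA6, on arm 2p, at -1.18. NRF2 response genes had 11 of 19 lower and 2 higher, or 9 to 11 and 3 or 4, with ME1, malic enzyme, at -2.09. The p53 targets had 5 of 25 higher and 7 lower, or 8 to 10 higher and 4 to 6 lower under the other scalings. BTG2, an antiproliferative gene, rose by 2.14 ± 0.10 and SESN1 by 1.71 ± 0.08, and TNFRSF10B, a death receptor gene on 8p, fell from 74.2 to 36.6 TPM. Hypoxia genes had 6 of 20 higher and 6 lower, and apoptosis regulators 6 of 25 higher and 5 lower, among them CASP8 (-0.99 ± 0.11) and BCL2L1, the BCL-XL gene (-0.68 ± 0.09).

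In signalling, each list is set against 18.1% higher and 33.9% lower among all genes. Of 39 WNT genes 15 were higher and 9 lower. Under the other scalings 19 to 21 were higher and 4 to 8 lower. LEF1, a transcription factor of the pathway, rose from 16, 13 and 13.2 to 97.6, 106 and 100 TPM (2.77 ± 0.08) and SOX9 from 1.26, 1.48 and 1.38 to 23.3, 28.6 and 23.2 TPM (3.45 ± 0.12). NOTCH genes had 6 of 22 higher and 10 lower. HES1, a target of the pathway, rose from 6.57, 6.93 and 6.14 to 33.6, 35.9 and 31.7 TPM (2.20 ± 0.09), while HES6 (-2.66 ± 0.13) and the ligand gene JAG1 (-1.73 ± 0.14) fell. BMP and TGF-beta genes had 13 of 34 higher and 8 lower. ID2, a target gene, rose from 140, 134 and 135 to 506, 529 and 474 TPM (1.87 ± 0.05) and BAMBI, a pseudoreceptor gene, by 2.37 ± 0.08. INHBA, an activin subunit gene, was listed at 0 in all DMSO and 144 h libraries and at 4.4, 4.86 and 5.24 TPM long-term, and BMPR1B, a BMP receptor gene, fell (-2.94 ± 0.13). Growth factor receptors and ligands had 8 of 26 higher and 12 lower. IGF1R, the receptor of insulin-like growth factor, fell from 13.7, 14.9 and 11.5 to 1.39, 1.43 and 1.4 TPM (-2.57 ± 0.13), and NRG3, a neuregulin gene, rose by 2.40 ± 0.11. Immediate early genes had 6 of 22 higher and 9 lower, with FOS at -2.55 and DUSP4, a MAP kinase phosphatase gene on 8p, at -4.02. Integrins, collagens and laminins had 8 of 29 in each direction, with COL6A1 at 2.06 and ITGA6 at -1.91.

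Of 15 genes of antigen presentation 9 were higher and 3 lower (median 0.48). The shares among all genes, 18.1% higher and 33.9% lower, are the background for this and the next lists. HLA-B rose from 30, 22.7 and 25.4 to 71.5, 95.9 and 75 TPM (1.59 ± 0.11), although reads of similar HLA genes are hard to tell apart, and B2M, the light chain gene of class I molecules, fell from 469, 502 and 447 to 242, 266 and 231 TPM (-0.94 ± 0.09). Interferon response genes had 10 of 28 higher and 9 lower. Lysosome and autophagy genes had 15 of 39 higher and 6 lower, and 21 to 28 higher under the other scalings, with MAP1LC3B at 1.07. Histone and DNA methylation enzymes had 4 of 36 higher and 17 lower (11.1 and 47.2%). EZH2, a histone methyltransferase gene (-0.63 ± 0.07), DNMT1 (-0.70 ± 0.07) and DNMT3A, on 2p (-1.10 ± 0.10), fell, and KDM5B, a demethylase gene, rose by 0.85 ± 0.08. Drug metabolism and efflux genes had 5 of 14 higher and 6 lower. GSTA1, a glutathione transferase gene, rose from 22.7, 23.8 and 24.4 to 140, 149 and 144 TPM (2.56 ± 0.10) and ABCC4, a transporter gene, fell (-2.59 ± 0.13). Metallothioneins had 1 of 6 higher and 2 lower, near the shares of all genes. Sialyltransferases had 6 of 11 higher, such as ST6GALNAC5 (3.49 ± 0.17), and 2 lower. Surface antigens used as prostate cancer targets had 4 of 20 higher and 11 lower. STEAP1 fell from 184, 194 and 175 to 48, 56.5 and 49 TPM (-1.83 ± 0.08), NECTIN4 rose by 1.40 ± 0.10, and FOLH1, the gene of prostate-specific membrane antigen, was at 269 ± 35.2 and 310 ± 34.7 TPM (adjusted p = 0.102).

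**Figure D4:**
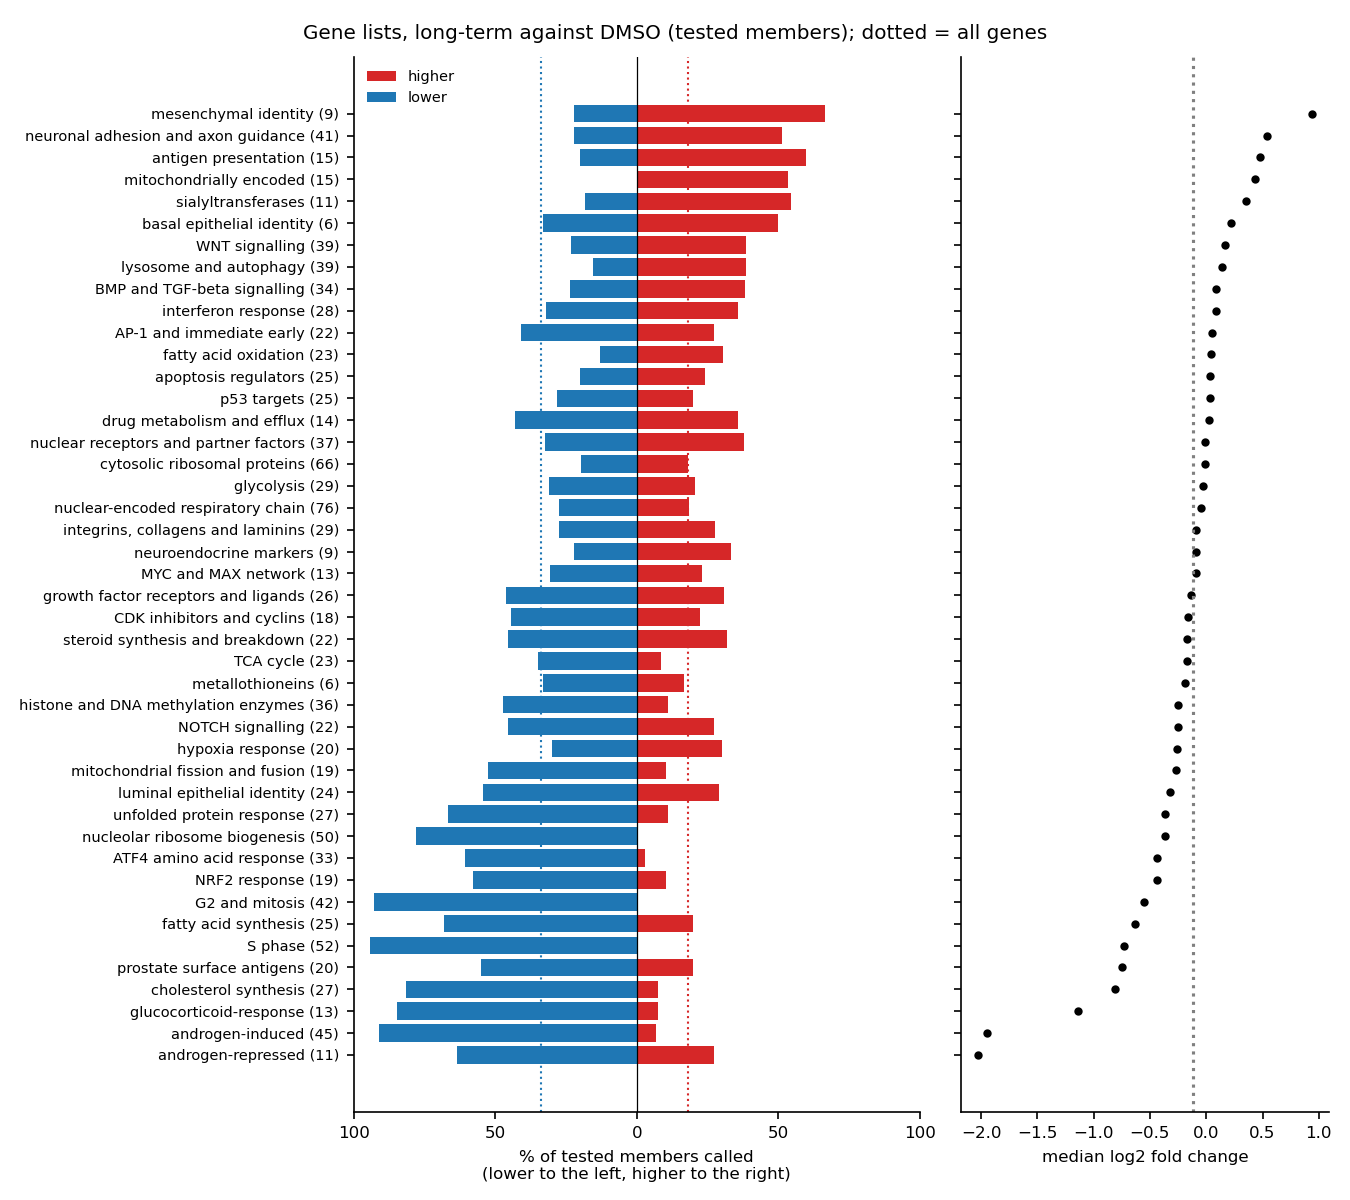
For each gene list with at least 5 tested members (number tested in parentheses), the left panel shows the percent of tested members called higher (red, to the right) and lower (blue, to the left) in long-term against DMSO, and the right panel the median log2 fold change; dotted lines mark all tested genes (18.1% higher, 33.9% lower, median -0.12). Androgen-repressed and androgen-induced genes have the lowest medians, S phase, G2 and mitosis, and nucleolar ribosome biogenesis have no higher member, and mesenchymal and neuronal adhesion genes have the highest medians.

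Of 4294 genes called higher at 144 h than in DMSO, 2254 (52.5%) were called lower long-term than at 144 h, against 36.8% of all genes. Of 2647 genes called lower at 144 h, 408 (15.4%) were called higher long-term than at 144 h, against 9.23%. Each pair of calls shares the 144 h libraries, and these counts were made as deposited, without other scalings. Some of the genes that were high at 144 h were near their DMSO level in the long-term libraries. DDC, aromatic amino acid decarboxylase (ENSG00000132437, chromosome 7, 50458436 to 50565457), was at 18.8, 18.1 and 20.7 TPM in DMSO, 307, 288 and 321 TPM at 144 h and 19, 24.8 and 20.6 TPM long-term, so that long-term and DMSO libraries overlapped (0.15 ± 0.10, adjusted p = 0.237). ATP1B1, a sodium pump subunit gene (ENSG00000143153, chromosome 1, 169105697 to 169132722), was at 211, 211 and 201, 1455, 1384 and 1398 and 220, 241 and 199 TPM in the same groups (adjusted p = 0.545), and GRB10, an adaptor gene, at means of 55.4, 295 and 49.7 TPM (adjusted p = 0.133). Under each of the 4 other scalings the small excess over DMSO of DDC (0.28 to 0.38) and ATP1B1 (0.21 to 0.32) was called. MAST4, a kinase gene, was below DMSO long-term, with 4.84, 6.85 and 6.32 TPM in DMSO, 71.3, 66.1 and 68.4 TPM at 144 h and 3.09, 4.24 and 3.92 TPM long-term (-0.56 ± 0.11, adjusted p = 0.000639). In the other direction, RBM24, an RNA-binding protein gene, had means of 50, 17.8 and 47.2 TPM in DMSO, at 144 h and long-term (adjusted p = 0.344 against DMSO). TRPM8, the cold-sensing channel gene, at 16.6, 0.547 and 2.27 TPM, was above its 144 h level long-term but below DMSO (-2.42 ± 0.19, adjusted p = 1.8e-08). These genes were chosen for their reversal between groups, so their order is a description.

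Lower genes were unevenly spread over the genome. On arm 8p, 133 of 196 tested genes (67.9%) were lower than in DMSO and 11 higher, and the arm's median log2 fold change was -0.53 against -0.12 for all genes. Taken library by library, the arm's median was at -0.44, -0.40 and -0.42 relative to all genes in long-term replicates 1, 2 and 3 and at -0.01, 0.03 and -0.02 in the DMSO replicates. Arm 2p had 231 of 398 genes (58.0%) lower and 38 higher, with -0.32, -0.30 and -0.32 in the long-term libraries. In the 9 stretches of 10 Mb from the 2p end to 90 Mb the medians ran from -0.57 to -0.28, while from 90 to 100 Mb the median was -0.03. On chromosome 8 the 5 stretches to 50 Mb had medians of -0.63 to -0.44, and the next, from 50 to 60 Mb, 0.06. Arm 8q was the opposite case, with 125 of 356 genes (35.1%) higher, 61 lower and a median 0.25 above all genes. Arm 13q had 115 of 258 lower, with 32 of 47 lower between 20 and 30 Mb and 17 of 25 between 30 and 40 Mb, and its median relative to all genes was -0.15. At 144 h against DMSO the medians of 8p, 2p and 8q were -0.03, 0.10 and 0.06, beside 0.07 for all genes. Among the single genes, ODC1, which makes polyamines and lies on 2p, fell from 415, 450 and 388 to 133, 156 and 140 TPM (-1.54 ± 0.08), as did MBOAT2, a lysophospholipid acyltransferase gene on 2p (-3.30 ± 0.09), PLPP5, a lipid phosphatase gene on 8p (-1.81 ± 0.08), PRAG1, on 8p (-3.56 ± 0.09), and FRY, on 13q (-4.21 ± 0.10). MATN2, a matrix protein gene on 8q, rose by 3.87 ± 0.13. These arms were described after their medians were seen, and no test was made of an arm. The labels do not say whether the long-term cells descend from a selected subclone. For genes of these arms, a change of the arm and a change of the single gene cannot be told apart from the comparison with DMSO alone. At 144 h against DMSO, HK2 was at -1.34 ± 0.11, FDFT1 at -0.71 ± 0.08 and NCOA1 at 0.06 ± 0.12. Long-term against 144 h, HK2 was at -0.23 (adjusted p = 0.11), FDFT1 at -0.78 and NCOA1 at -2.24. What part the arm had in single genes was not tested.

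**Figure D5:**
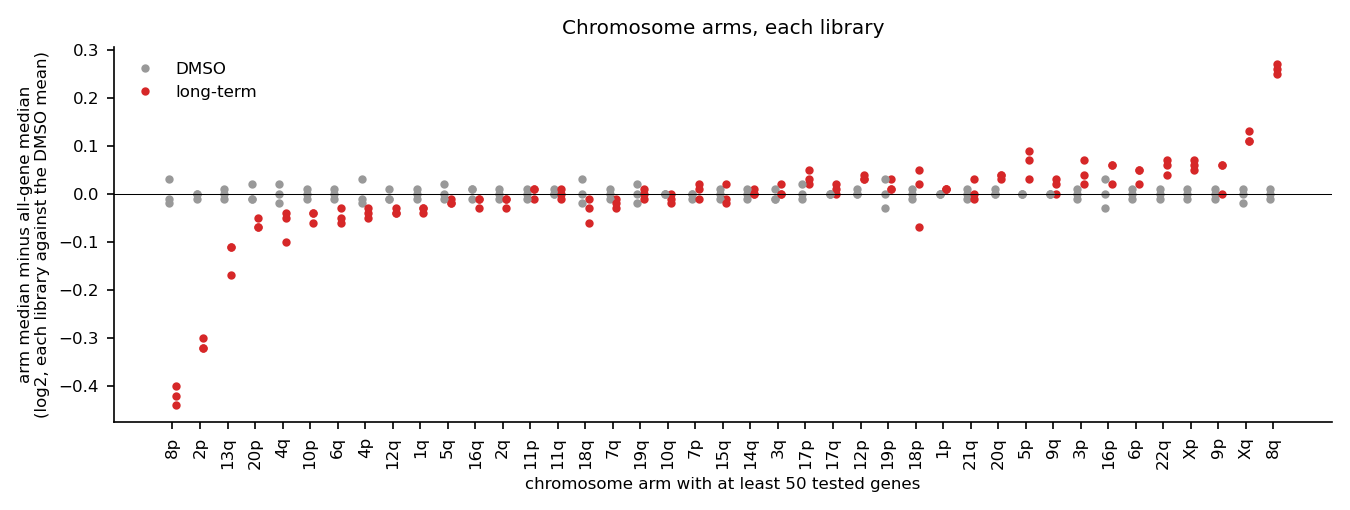
Median log2 change of the tested genes of each chromosome arm minus that of all genes, for each DMSO library (grey) and each long-term library (red) against the mean of the DMSO libraries; arms are ordered by the long-term value (y in log2 units). The 3 long-term points lie together at about -0.4 for 8p and -0.3 for 2p and at 0.25 to 0.27 for 8q, while most arms lie within 0.1 of 0.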

How the data were processed

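RNA of 16D cells was sequenced from poly(A)-selected, strand-specific libraries as single reads of 50 bp, per the labels' protocols. STAR, RSEM and Partek appear in the submitters' processing notes, as do hg38 and GRCh38, without a role or version. Gene-level TPM were computed and deposited by the authors, so no count test applies and depth is unknown. The authors' deposited mean columns for DMSO, 48 h and long-term matched the means of 3 libraries within 0.01 TPM for all 60623 genes; their fold columns were not used. Positions are from GENCODE release 29 (GRCh38), to which 58516 identifiers matched.

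A gene was kept where 3 or more of the 18 libraries had 1 TPM or more. Log2(TPM + 1) values were fitted with limma 3.58.1 in R 4.3.3: 1 model of 6 group means over all 18 libraries, moderated with a variance trend, with two-sided contrasts of long-term against DMSO, long-term against 144 h and 144 h against DMSO. The comparisons with DMSO share its 3 libraries. Adjustment was by Benjamini and Hochberg, separately for each contrast, and a call is an adjusted p under 0.05. Other steps used Python 3.11.15, numpy 2.4.6, pandas 2.3.3 and matplotlib 3.10.9.

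Counts and medians alone describe the 47 gene lists, 44 of them with 5 or more tested genes. The comparison, the lists and the genes named were chosen with earlier results of these data known. Named are KLK3, KLK2, TMPRSS2, FKBP5, NR3C1, MYC, DNM1L, HK2, MKI67 and CDKN1A, the 15 most changed in each direction, the 10 in each direction called the same way against DMSO and 144 h, the 10 in each direction that reversed between 144 h and long-term, up to 4 called members of each list and up to 3 genes of each arm described. Genes chosen by size of change had no overlap between libraries, a mean of at least 5 TPM in the higher group and no clone, pseudogene or Y-linked name. Called list members had to keep their call without each library. Other list members were named for their role, after their values were seen, and some genes of these rules are not reported here.

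A simulation of 16169 genes gave every group the measured DMSO means and kept the measured variability. Changed genes were drawn from means above about 5 TPM. A simulated long-term comparison recovered 99 of the 100 genes given a log2 change of 1 and 71 of the 100 given 0.5. Of its 175 calls 5 were genes simulated without a change. A simulated 144 h comparison with no changed gene gave 0 calls. The simulation held no shift shared by most genes, so it does not bear on how calls depend on scaling. Alternatives changed 1 choice at a time. The values were quantile normalized, scaled by median of ratios, or rescaled after removal of 37 mitochondrially encoded genes. The filter was dropped or set to 5 TPM, and the pseudocount was lowered to 0.1. The model lost its trend, was limited to the 6 libraries compared, or gained the mitochondrial share or the replicate number as a term, and each library was left out in turn.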

Additional observations from a re-analysis of the deposited data

Results flagged for a closer look

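For 19 named genes the change from DMSO had opposite signs at 144 h and long-term, both were called, and the test of the difference itself, long-term against 144 h in limma with Benjamini-Hochberg adjustment, was called too. Both changes from DMSO rest on the same 3 DMSO libraries, which cancel in the difference. Higher long-term than in DMSO but lower at 144 h were MYC (difference 1.42, adjusted p = 2.25e-07), PVT1 (1.48), KLK4 (2.46), AGT, the angiotensinogen gene (1.48), IGSF21, an immunoglobulin superfamily gene (1.98), and ACTA2 (2.32). MYC keeps the caution that its call against DMSO ended without 4 single libraries.

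Lower long-term than in DMSO but higher at 144 h were UGT2B15 (-7.31), UGT2B17 (-6.55), BCHE (-6.44), SLC44A4 (-5.60), ADAMTS1 (-4.79), MAST4 (-3.88), UNC13C, a synaptic vesicle priming gene (-3.80), ACKR3 (-3.28), JAG1 (-2.28), COL1A1 (-1.85), DNMT3A (-1.48), BCL2L1 (-0.95) and MLXIP (-0.71). The 3 long-term libraries lay below all 144 h libraries in each of these 13 genes and above them in each of the other 6. Many of the 19 were named by rules that required a called difference from 144 h and no overlap. For those genes both were fixed by the choice. Over all tested genes, 47.8% had no overlap between long-term and 144 h libraries. Adjusted p-values of the 19 differences ran from 2.9e-19 to 3.48e-06.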

How the results depend on the processing

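The count of genes that differed between long-term and DMSO libraries, 8413, ranged from 7334 to 8406 without single libraries, and was 8308 with the replicate block. The same-numbered libraries of both groups correlated in their deviations at 0.0 to 0.128, so the numbers were not taken to pair libraries. For long-term against 144 h the block gave 7312 calls beside 7450, with correlations of -0.108 to 0.065, and leaving out single libraries gave 5979 to 7774. Without single libraries 2462 to 2824 genes were higher than in DMSO and 4574 to 5944 lower, 669 to 749 higher and 748 to 971 lower by at least 1; against 144 h these were 1220 to 1425 higher and 4578 to 6554 lower, 272 to 312 and 623 to 827 by at least 1.

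Counts that moved by over 1.5 times against DMSO were the lower genes with the mitochondrial share as a covariate (3430) and the genes higher by at least 1 under the 5 TPM filter (445, with fewer genes tested). Against 144 h the higher genes numbered 3663 after median-of-ratios scaling, 3308 after quantile normalization and 2480 without mitochondrially encoded genes, and the lower genes 3370, 3496 and, with the covariate, 3290. Higher by at least 1 were 166 under the 5 TPM filter, and lower by at least 1 were 1203 with a pseudocount of 0.1, 418 after median-of-ratios scaling and 411 after quantile normalization. The cause was not tested, except that fewer genes are tested under the 5 TPM filter.

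Of 220 named genes tested, 204 had a value under each of the 16 settings that bear on this comparison, and 195 of these kept direction and call under all of them. With the genes that the 5 TPM filter or the removal of mitochondrial genes leaves out, 209 kept both wherever they had a value. GRB10 and RBM24, not called as deposited, changed sign: GRB10 was at 0.01 after quantile normalization and 0.01 with the covariate, and RBM24 at 0.07, 0.08, 0.05 and 0.04 under median-of-ratios, quantile, rescaling without mitochondrial genes and the covariate. Relative to all genes, the arm medians ran from -0.52 to -0.35 for 8p, -0.35 to -0.27 for 2p, -0.24 to -0.08 for 13q and 0.23 to 0.28 for 8q over the settings. Depth is unknown from TPM, so values under about 1 TPM carry an error that cannot be given.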

Other observations

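Further named genes complete the picture of single functions. HOXC9, a homeobox gene, was at 3.41 TPM in DMSO, 30.3 TPM at 144 h and 6.52 TPM long-term, below 144 h but above DMSO (0.78 ± 0.14 against DMSO, adjusted p = 0.000247). ANGPT1, an angiopoietin gene on 8q, was listed at 0 in every DMSO library and was at 4.6, 5.12 and 5.78 TPM long-term. CA12, a membrane carbonic anhydrase gene, rose by 1.84 ± 0.11 and EGLN3, an oxygen-sensing hydroxylase gene, by 1.12 ± 0.09. MXI1, a MYC antagonist gene, rose by 0.83 ± 0.12. GSTM3, a glutathione transferase gene, rose from 113, 115 and 112 to 279, 325 and 304 TPM (1.41 ± 0.08). MEIS1, a homeobox gene on 2p, fell from 13.1, 16.5 and 13.9 to 0.62, 0.55 and 0.62 TPM (-3.28 ± 0.12), and TNFRSF19, a receptor gene on 13q, from 24.6, 27.2 and 23 to 0.81, 0.66 and 0.48 TPM (-3.98 ± 0.11). HERC5 and HERC6, ubiquitin ligase genes of the interferon response, fell (-1.74 ± 0.12 and -1.11 ± 0.12), while UBE2L6, which works in the same modification pathway, rose by 1.38 ± 0.13.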
